A study of Mus musculus with 6 samples.

Results

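Type 2 cytokines and regulators of T helper 2 (Th2) cells were examined as 9 genes, chosen by name from the 54532 genes of the count table. They were the cytokine genes Il4, Il13, Il5, Il3, Csf2 and Il24, the receptor gene Il1rl1, and the transcription factor genes Stat6 and Gata3. RNA was sequenced from 6 cultures of splenic CD4+ T cells from male C57BL/6 mice aged 6 to 8 weeks, kept for 72 h under Th1 conditions. In 3 cultures the medium held 500 nM ALX-5407, which blocks glycine uptake through GlyT1 (Slc6a9), and the remaining 3 were given vehicle (0.1% DMSO). According to the methods, Th1 conditions were coated anti-CD3ϵ with anti-CD28, IL-2, IL-12p70 and a blocking antibody against IL-4, so that type 2 genes were measured in cells directed away from the Th2 fate. The series description gives 72 h of exposure to ALX-5407, while the methods give a shorter one. Nothing says whether the 3 biological replicates of a group came from separate mice, so p-values measure the spread between these cultures, which may be technical.

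As background, IL-4 activates STAT6 in naive CD4+ T cells, STAT6 induces GATA3, and GATA3 activates the cytokine locus that holds Il4, Il13 and Il5. IL-12 and T-bet drive the opposing Th1 program and restrain GATA3. IL-3 and GM-CSF, the product of Csf2, are encoded by adjacent genes and made by many kinds of activated T cell, while IL-24 belongs to the IL-10 family. Il1rl1 encodes ST2, the receptor for the alarmin IL-33, which is best known on Th2 cells.

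Of the 9 genes, 8 had enough counts to be tested, and 5 of them, Il3, Il24, Il13, Il1rl1 and Stat6, were lower in ALX-5407-treated Th1 cells at an adjusted p-value under 0.05. By the same rule 23.2% of all 15938 tested genes were lower. Il3, Il24, Il13 and Il1rl1 also had an absolute log2 fold change over 1, which together with the p-value defines a differentially expressed gene (DEG) here and was met by 6.68% of all genes. The same 5 genes had every treated culture below every vehicle culture, as had 27.1% of all genes tested. Il4, Csf2 and Gata3 did not pass the test. Called higher were 0 of the 8 by edgeR, DESeq2 or limma-voom, against 24.5% of all genes by edgeR, and 0 were higher DEGs, against 3.36%. Gata3 was the 1 gene higher at an unadjusted p under 0.05. The median log2 fold change was -1.12 over the 8 genes and 0.0053 over all genes tested. These genes, and the lists compared below, were chosen with earlier results of these data known. Setting them beside all genes is therefore a description and not a test.

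**Figure D1:**
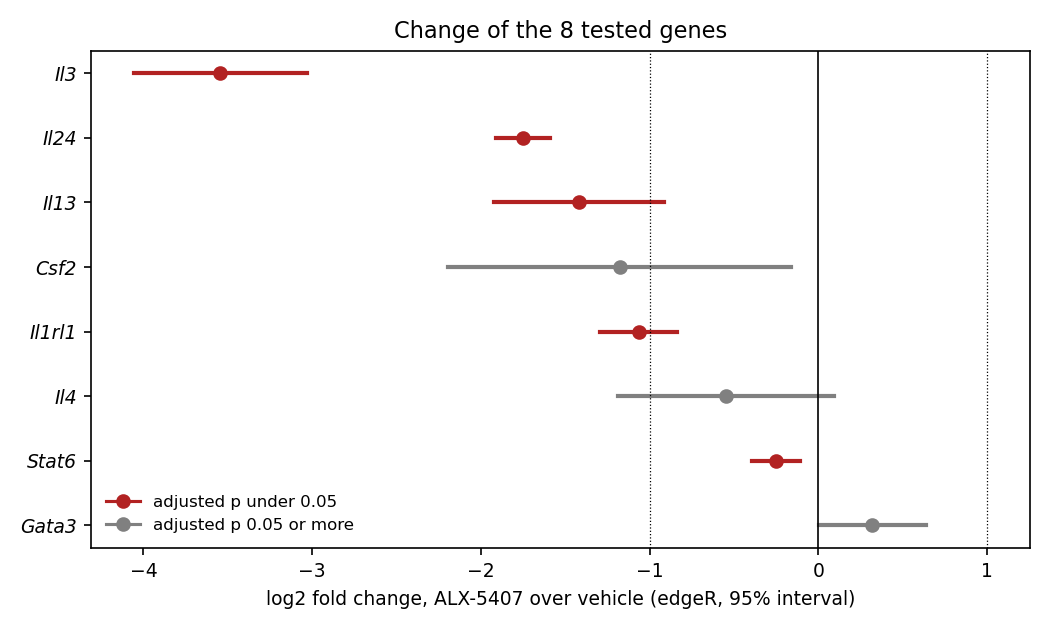
Log2 fold change of the 8 tested genes (x axis, ALX-5407 over vehicle, edgeR) with 95% intervals, in red where the adjusted p-value was under 0.05 and in grey where it was not, with dotted lines at -1 and 1. Il3 lies farthest to the left at -3.54, and Gata3 is the only gene to the right of 0, at 0.32.

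Promoter sequences are shown for Il3, Il13 and Il1rl1, which fell, and for Il4, which was not called, because GATA3, NFAT and STAT6 are the factors best known for acting on these genes. Each line gives the 250 bases before a RefSeq start site (GRCm38.p6), 5′ to 3′ on the strand of the gene. Capitals mark GATA hexamers (an A or a T followed by GATAA or by GATAG) and the NFAT-type hexamer GGAAAA, each searched on both strands. The stretches lie at chr11:54267280-54267529 (minus strand) for Il3, chr11:53634703-53634952 (minus strand) for Il13, chr1:40429320-40429569 (plus strand) for the upstream start site of Il1rl1 and chr11:53618666-53618915 (minus strand) for the main start site of Il4.
Il3: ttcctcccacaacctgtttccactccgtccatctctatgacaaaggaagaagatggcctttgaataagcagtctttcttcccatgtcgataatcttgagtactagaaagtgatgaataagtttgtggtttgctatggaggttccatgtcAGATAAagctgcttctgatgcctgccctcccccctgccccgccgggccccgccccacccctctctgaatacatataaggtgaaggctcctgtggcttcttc
Il13: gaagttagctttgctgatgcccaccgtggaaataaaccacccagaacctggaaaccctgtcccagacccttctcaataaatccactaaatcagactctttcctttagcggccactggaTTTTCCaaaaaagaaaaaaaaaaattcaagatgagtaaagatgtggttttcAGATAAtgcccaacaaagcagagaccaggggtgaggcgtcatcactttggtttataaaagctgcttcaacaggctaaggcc
Il1rl1: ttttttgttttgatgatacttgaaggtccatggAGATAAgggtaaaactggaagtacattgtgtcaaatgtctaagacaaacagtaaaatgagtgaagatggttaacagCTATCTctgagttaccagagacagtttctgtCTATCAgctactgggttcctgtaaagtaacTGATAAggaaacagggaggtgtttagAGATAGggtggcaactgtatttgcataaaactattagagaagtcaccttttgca
Il4: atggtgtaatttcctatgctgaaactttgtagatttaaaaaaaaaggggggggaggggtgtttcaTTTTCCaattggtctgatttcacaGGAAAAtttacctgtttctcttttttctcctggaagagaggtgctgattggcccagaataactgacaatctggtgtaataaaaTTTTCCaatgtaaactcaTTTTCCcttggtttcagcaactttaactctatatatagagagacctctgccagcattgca

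The Il3 stretch held 1 GATA hexamer, 101 bases before the start site. In the Il13 stretch there was 1 GATA hexamer at 81 bases and 1 NFAT-type hexamer at 132 bases. The Il1rl1 stretch carried 5 GATA hexamers, between 54 and 217 bases before the start site. The Il4 stretch had 4 NFAT-type hexamers, no GATA hexamer, and a STAT6-type motif (TTC and GAA with 4 bases between them) beginning 167 bases before the start site, which overlaps the NFAT-type hexamer at 161 bases. Among 32851 RefSeq stretches of this length, 26.5% held a GATA hexamer, 20.4% an NFAT-type hexamer and 5.85% the STAT6-type motif. Of the windows not printed, 1 GATA hexamer each lay in those of the other Il4 start site (80 bases before it), the other Il1rl1 start site (103 bases), Csf2 (247 bases) and Il5 (72 bases). The Stat6 window had 1 NFAT-type hexamer, 216 bases before the start site, and no GATA hexamer, and the Gata3 window had neither. GATA hexamers were thus found in windows of genes that were called and of genes that were not. Promoter entries were found for 8 of the 9 genes and not for Il24. These are matches of letters and do not show binding.

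Il3 (ENSMUSG00000018914) encodes interleukin-3, a growth factor for basophils, mast cells and blood progenitors. It lies on chromosome 11 from 54265303 to 54267277 (GRCm38, minus strand) with 5 exons. The vehicle cultures had 280, 229 and 255 counts, or 8.59, 7.30 and 8.28 CPM (counts scaled to library size). The treated cultures had 36, 21 and 17 counts, or 1.02, 0.562 and 0.484 CPM, all far below the vehicle range. The mean level fell from 8.06 ± 0.675 to 0.689 ± 0.289 CPM (SD, n = 3 cultures per group), 11.7-fold lower with a 95% interval from 8.18 to 16.6 (log2 fold change -3.54, SE 0.241, adjusted p = 1.15e-08 by edgeR).

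Csf2 (ENSMUSG00000018916), 15.6 kb from Il3 on the same strand, encodes GM-CSF, a growth factor for granulocytes and macrophages. Its counts were low, at 37, 15 and 22 in the vehicle cultures and 11, 18 and 8 in the treated cultures. In CPM these were 1.14, 0.478 and 0.714 against 0.311, 0.482 and 0.228, so that the second treated culture reached the second vehicle culture. The difference did not pass the test (log2 fold change -1.18, SE 0.480, adjusted p = 0.0539 by edgeR), with a 95% interval of the log2 fold change from -2.19 to -0.16. It did pass without the second vehicle culture (-1.44, adjusted p = 0.0404 by edgeR) or the second treated culture (-1.51, adjusted p = 0.0446 by edgeR). With each culture left out in turn, the log2 fold change of Csf2 ranged from -1.51 to -0.80 and its adjusted p from 0.0404 to 0.292 (edgeR). Csf2 shares 96 exon bases with Gm12223 on the other strand, which had 0 counts in every library. Per kilobase of gene length, Il3 stood at 9.62, 19.4 and 14.7 times the level of Csf2 in the vehicle cultures and 4.16, 1.48 and 2.70 times in the treated cultures. This ratio did not overlap between the groups.

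Il13 (ENSMUSG00000020383), a cytokine of allergic inflammation and mucus production, lies on chromosome 11 from 53631324 to 53634702 with 4 exons. The vehicle cultures had 389, 477 and 304 counts, or 11.9, 15.2 and 9.87 CPM. In the treated cultures there were 143, 257 and 101 counts, or 4.05, 6.88 and 2.88 CPM. The groups did not overlap, but the spread within each was wide. The mean level fell from 12.3 ± 2.69 to 4.60 ± 2.06 CPM, 2.67-fold lower with a 95% interval from 1.89 to 3.78 (log2 fold change -1.42, SE 0.237, adjusted p = 0.000123 by edgeR).

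Il4 (ENSMUSG00000000869), the cytokine that drives Th2 differentiation and IgE class switching, lies 12.7 kb from Il13 and spans chromosome 11 from 53602982 to 53618669. Its counts were 52, 80 and 95 in the vehicle cultures and 81, 54 and 42 in the treated cultures. In CPM these were 1.60, 2.55 and 3.08 against 2.29, 1.45 and 1.20, and the first treated culture lay inside the vehicle range. The difference did not pass the test (log2 fold change -0.55, SE 0.302, adjusted p = 0.150 by edgeR). The 95% interval of the log2 fold change, from -1.19 to 0.091, allows a level up to 2.28-fold lower as well as a small increase. Without the first treated culture Il4 was called lower (-0.86, adjusted p = 0.0436 by edgeR). Leaving out other cultures moved it as far as -0.35, with an adjusted p of up to 0.418 by edgeR. Per kilobase, Il13 stood at 7.62, 6.07 and 3.26 times the level of Il4 in the vehicle cultures and 1.80, 4.85 and 2.45 times in the treated cultures, and these ratios overlapped.

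Il5 (ENSMUSG00000036117), the growth factor of eosinophils, lies 86.1 kb from Il13. It had 8, 4 and 11 counts in the vehicle cultures and 2, 7 and 8 in the treated cultures, too few to be tested. With no filter on low counts its log2 fold change was -0.60, with a 95% interval from -2.28 to 1.07 (adjusted p = 0.646 by edgeR), so no difference was detectable at this depth. Il5 shares 417 exon bases with Gm12214 on the other strand, which had 0 counts.

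Il24 (ENSMUSG00000026420), an IL-10 family cytokine made by Th2 cells, was the most abundant of the cytokine genes per kilobase. It lies on the minus strand of chromosome 1 from 130882074 to 130887454 with up to 6 exons. There were 7236, 6572 and 7232 counts in the vehicle cultures and 2476, 2377 and 2248 in the treated cultures. In CPM these were 222, 209 and 235 against 70.1, 63.7 and 64.1, with the treated cultures close to each other and far below the vehicle cultures. The level was 3.37-fold lower, with a 95% interval from 3.02 to 3.76 (log2 fold change -1.75, SE 0.0755, adjusted p = 1.04e-10 by edgeR). Il24 nevertheless lay above 93.7% of tested genes in level per kilobase with ALX-5407, against 98.3% with vehicle.

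**Figure D2:**
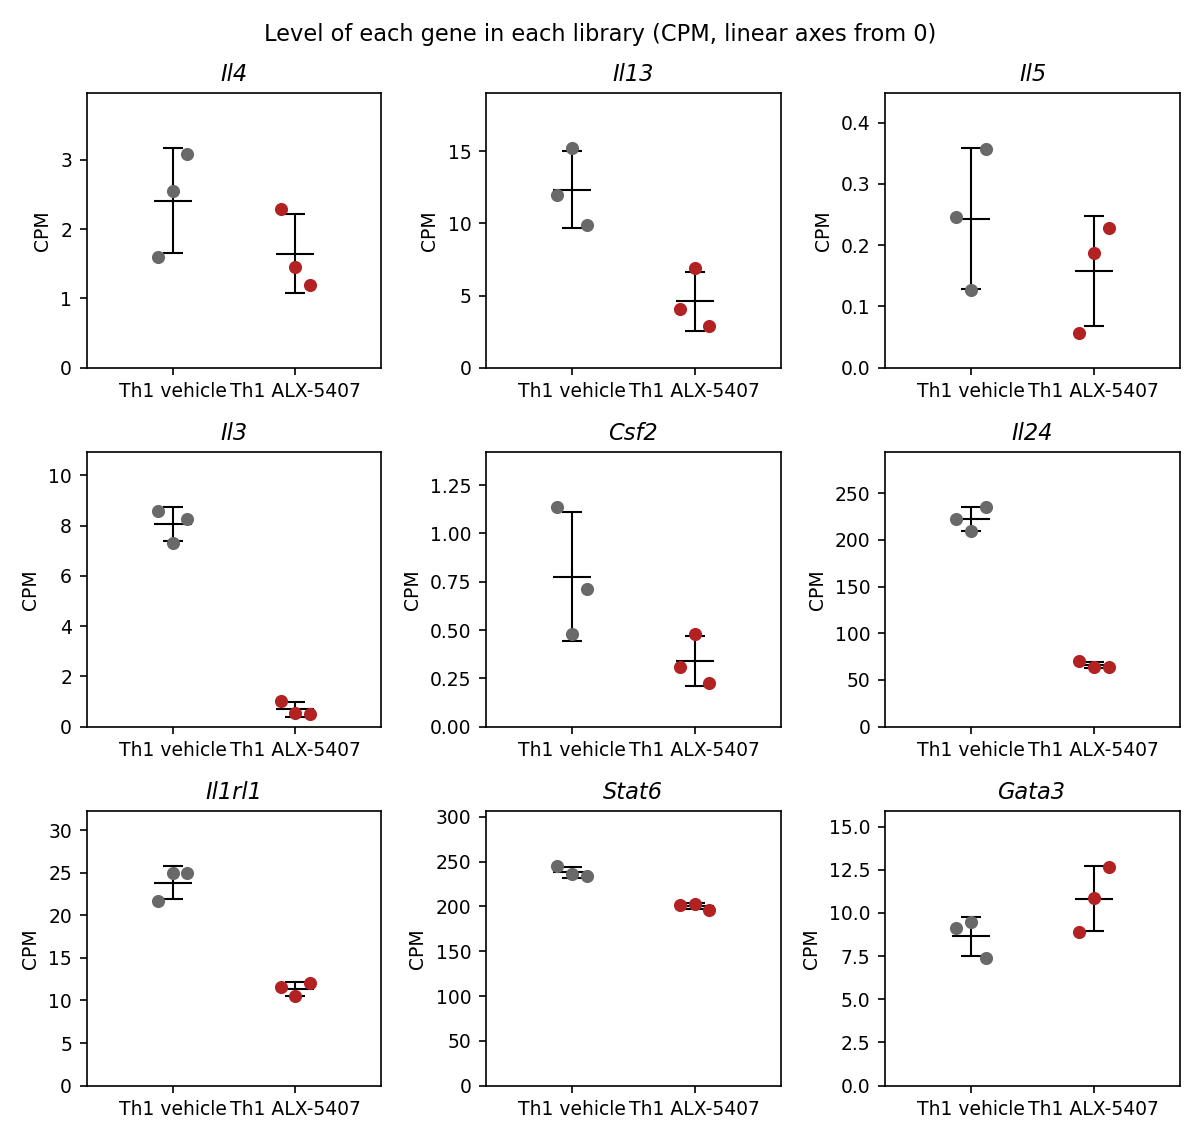
Level of each of the 9 genes in CPM (y axes, linear from 0) in the 3 vehicle and 3 ALX-5407-treated cultures, with a point per culture and bars for the mean and SD. The groups are apart for Il13, Il3, Il24, Il1rl1 and Stat6 and overlap for Il4, Il5, Csf2 and Gata3.

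Il1rl1 (ENSMUSG00000026069), the receptor for IL-33, lies on chromosome 1 from 40429570 to 40465415 and has 5 annotated transcripts. Its soluble and membrane-bound forms cannot be separated in counts per gene. It had 705, 782 and 769 counts in the vehicle cultures and 410, 392 and 424 in the treated cultures. In CPM these were 21.6, 24.9 and 25.0 against 11.6, 10.5 and 12.1, close together within each group and well apart between groups. The level was 2.09-fold lower (log2 fold change -1.07, SE 0.107, adjusted p = 6.89e-07 by edgeR).

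Stat6 (ENSMUSG00000002147), the transcription factor that carries the signal of the IL-4 receptor, had the smallest of the 5 called changes. Its levels were 245, 236 and 233 CPM in the vehicle cultures and 201, 203 and 196 CPM in the treated cultures. The groups did not overlap, and the spread within each was narrow. The level was 1.19-fold lower (log2 fold change -0.25, SE 0.0667, adjusted p = 0.00564 by edgeR). On chromosome 10, from 127642986 to 127660957, Stat6 shares 40 of its 4402 exon bases with Nab2 on the other strand, which was not called (-0.019, adjusted p = 0.903 by edgeR) and whose direction depended on the scaling.

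Gata3 (ENSMUSG00000015619), the defining Th2 transcription factor, lies on chromosome 2 from 9857078 to 9890034. It had 297, 298 and 227 counts in the vehicle cultures and 315, 405 and 445 in the treated cultures. In CPM these were 9.11, 9.50 and 7.37 against 8.91, 10.8 and 12.7, with the first treated culture inside the vehicle range. The difference did not pass the test (log2 fold change 0.32, SE 0.150, adjusted p = 0.0903 by edgeR). It did without the first treated culture (0.45, adjusted p = 0.0286 by edgeR) and with scaling to library size alone (0.38, adjusted p = 0.0435 by edgeR). Leaving out other cultures brought it as low as 0.20, with an adjusted p of up to 0.347 by edgeR. The 3 genes that overlap Gata3 had at most 6 counts in any library.

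Compared per kilobase of gene length, mean levels in vehicle cultures ran from Il24 at 160.2 CPM per kb through Stat6 at 54.1, Il3 at 12.8, Il13 at 10.2, Il1rl1 at 3.46, Gata3 at 2.18, Il4 at 1.96 and Csf2 at 0.970 to Il5 at 0.158. Neighbours in this order whose cultures overlapped were Il3 with Il13, Gata3 with Il4, and Il4 with Csf2. With ALX-5407 the order was Il24 at 47.6 CPM per kb, Stat6 at 45.5, Il13 at 3.82, Gata3 at 2.72, Il1rl1 at 1.65, Il4 at 1.34, Il3 at 1.09, Csf2 at 0.426 and Il5 at 0.102. There the overlapping neighbours were Il24 with Stat6, Il13 with Gata3, Il1rl1 with Il4, and Il4 with Il3. Il3 stood above 75.6% of tested genes in level per kilobase with vehicle and above 29.1% with ALX-5407.

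**Figure D3:**
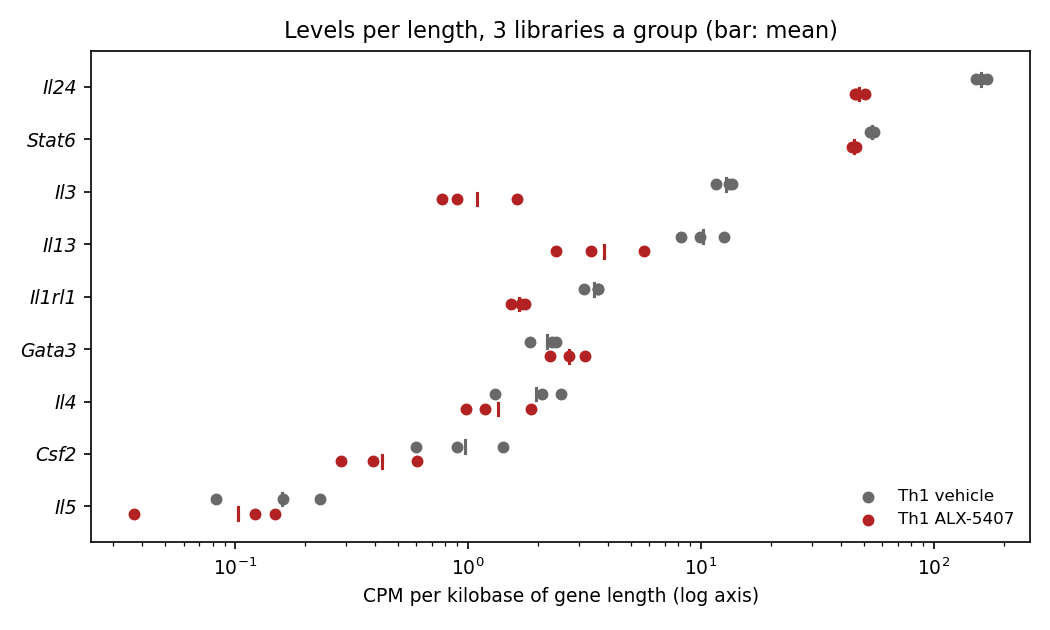
Level per kilobase of gene length (x axis, log scale, CPM per kb) of the 9 genes, ordered by the mean in vehicle cultures, with 3 points and a mean bar per group. Il24 and Stat6 lie above the other genes in both groups, and Il3 drops from 12.8 to 1.09 CPM per kb.

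The genes around the 9 were compared in the same fit. Of 194 other genes within 500 kb, 82 were tested, with 28 called lower, 23 higher and a median log2 fold change of -0.078. Over all genes tested, 23.2% were lower and 24.5% higher. The neighbours held 5 lower and 5 higher DEGs, beside 6.68% and 3.36% of all genes tested. Acsl6, which encodes an enzyme that activates fatty acids, lies 36.5 kb from Il3 on the side away from Csf2. Its levels were 6.26, 5.99 and 7.63 CPM in the vehicle cultures and 1.78, 1.55 and 1.62 CPM in the treated cultures, a lower DEG like Il3 (log2 fold change -2.0, SE 0.189, adjusted p = 3.50e-07 by edgeR). P4ha2 (-0.66, adjusted p = 1.52e-06 by edgeR) and Fnip1 (-0.43, adjusted p = 0.00285 by edgeR), on either side of Csf2 and Il3, were also lower. Rad50, a DNA repair gene between Il13 and Il5 which is known to hold the locus control region of the Th2 cytokines, was higher (0.39, adjusted p = 0.000406 by edgeR), from 88.1, 96.6 and 85.0 to 112, 121 and 120.3 CPM. Kif3a, 1.01 kb from Il4, was called lower (-0.27, adjusted p = 0.0348 by edgeR), but not with scaling to library size alone or without the first or second culture of either group (adjusted p = 0.0515 to 0.210 by edgeR). Sept8, a septin gene whose symbol the table holds as 8-Sep, lies 53.4 kb from Il4 and was a higher DEG, from 354, 317 and 284 counts to 704, 771 and 793 (1.06, adjusted p = 9.54e-07 by edgeR). Irf1, an interferon-induced transcription factor gene 44.9 kb from Il5, was not called (-0.012, adjusted p = 0.902 by edgeR), and its direction depended on the scaling. The other tested coding genes within 200 kb of the chromosome 11 cytokines, Pdlim4, Gdf9, Uqcrq, Aff4, Gm17334, Gm12216 and Slc22a5, were not called.

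The region of Il1rl1 holds the receptor genes of the interleukin-1 and interleukin-18 family. Of 10 tested genes around it, 6 were called lower (against 23.2% of all genes) and 0 higher by edgeR (against 24.5%), with 0 higher at an unadjusted p under 0.05, while DESeq2 called 5 lower and limma-voom 6, each with 0 higher. Il18r1, a receptor chain for IL-18 typical of Th1 cells, begins 0.137 kb from Il1rl1 and went from 143, 166 and 171 to 91.8, 90.9 and 101 CPM (log2 fold change -0.76, SE 0.0805, adjusted p = 1.20e-06 by edgeR). Its partner chain Il18rap (-0.57, adjusted p = 0.000625 by edgeR) and the IL-36 receptor gene Il1rl2 (-0.62, adjusted p = 0.00389 by edgeR) were lower in every treated culture than in any vehicle culture. Il1r1, the IL-1 receptor gene, was a lower DEG from a mean of 45.5 counts (-1.53, adjusted p = 0.0158 by edgeR), a call lost in DESeq2 (adjusted p = 0.126) and in edgeR without the first vehicle culture (adjusted p = 0.0932). Its counts were 87, 67 and 43 with vehicle and 37, 4 and 35 with ALX-5407. With each culture left out in turn its log2 fold change ranged from -1.91 to -1.01.

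Of 15 tested genes around Il24, 4 were lower and 5 higher, beside 23.2% and 24.5% of all genes tested. Around Il24, the IL-10 family genes went in different directions. Il10, 132 kb away, rose from 34.7, 33.5 and 40.9 to 89.6, 81.6 and 78.6 CPM (log2 fold change 1.19, SE 0.0887, adjusted p = 2.98e-08 by edgeR), while Il24 fell. Il19, which lies between them, had at most 21 counts, with 0 in the third culture of each group, and was not called (0.66, adjusted p = 0.581 by edgeR). On the other side of Il24, the IgM receptor gene Fcmr was lower (-0.95, adjusted p = 0.000771 by edgeR). Pigr, the receptor that carries IgA across epithelia, went from 33, 40 and 28 to 4, 0 and 2 counts and was a lower DEG (-4.17, adjusted p = 5.21e-05 by edgeR). Among the other tested coding genes within 200 kb, Mapkapk2, Pfkfb2 and Yod1 were not called. Farther out, the kinase gene Dyrk3 was a higher DEG (1.22, adjusted p = 1.47e-05 by edgeR), and Gm28913, annotated as antisense, was a lower DEG (-1.64, adjusted p = 1.90e-05 by edgeR).

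**Figure D4:**
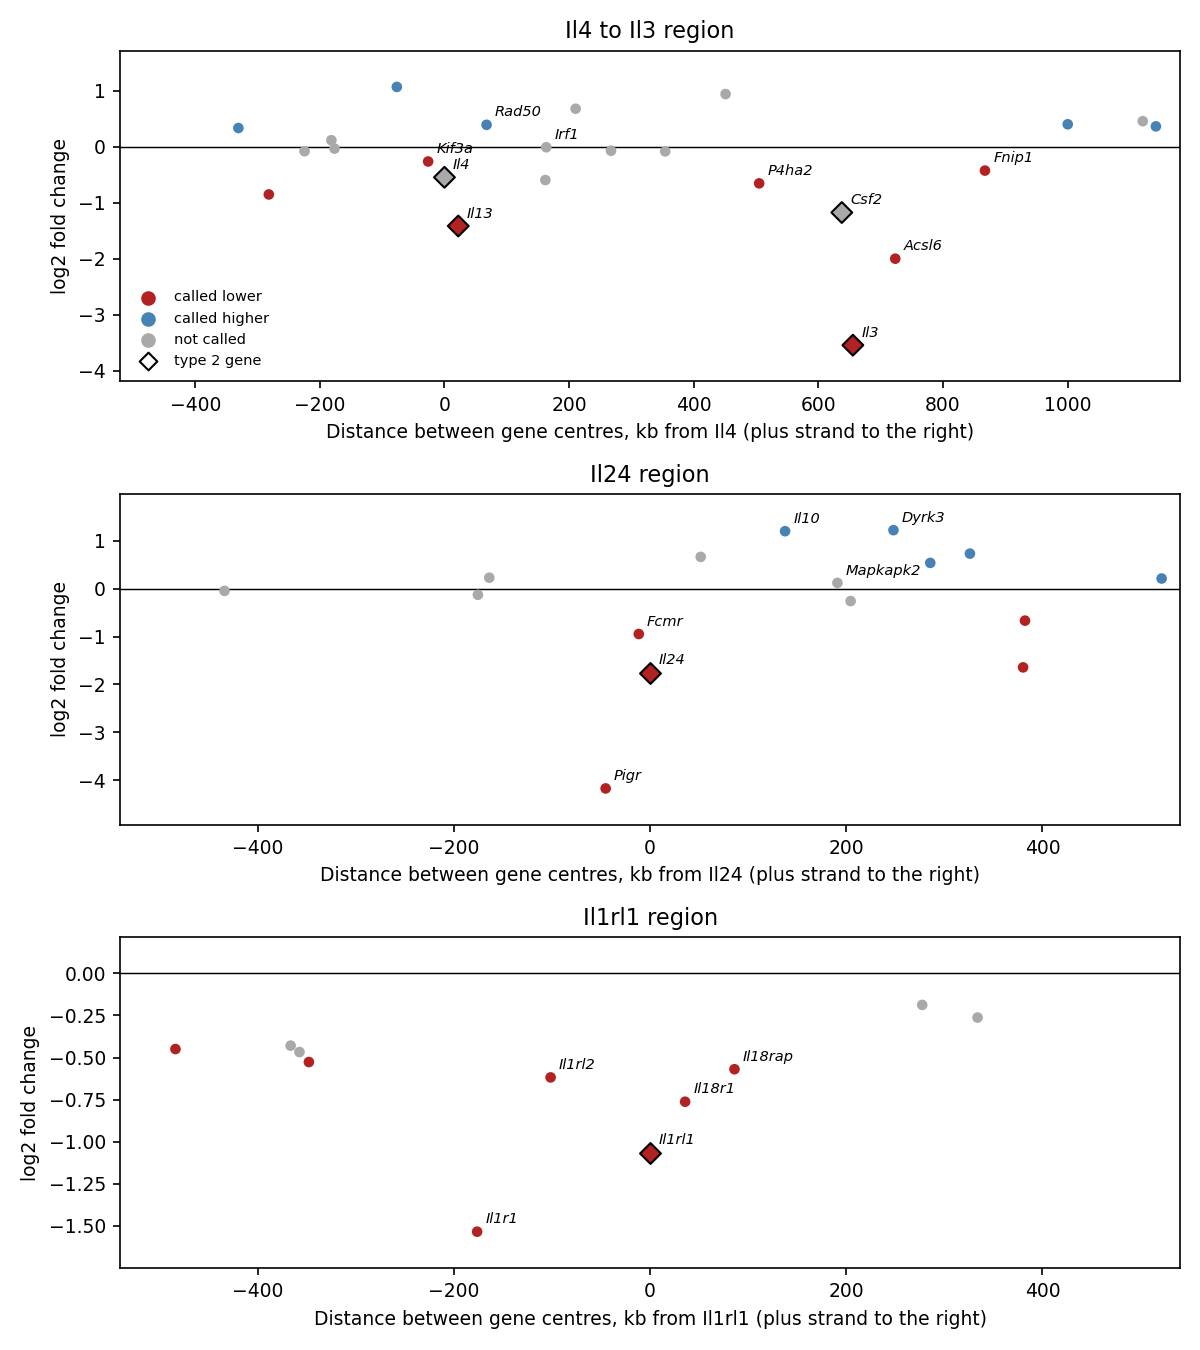
Log2 fold change (y axes, ALX-5407 over vehicle) of tested genes around Il4 to Il3, Il24 and Il1rl1 by distance between gene centres (x axes, kb), in red for called lower, blue for called higher and grey for not called, with diamonds for the type 2 genes. In the top panel Il3 at -3.54 and Acsl6 at -2.0 lie side by side, and in the bottom panel every tested gene lies below 0.

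Near Stat6, 11 of 32 tested genes were lower and 10 higher, beside 23.2% and 24.5% of all genes tested. The 32 held 1 lower and 2 higher DEGs, beside 6.68% and 3.36% of all genes. Lrp1, a lipoprotein receptor gene, was a lower DEG (-1.08, adjusted p = 3.57e-08 by edgeR), and Shmt2, a mitochondrial enzyme that converts serine and glycine, was higher (0.84, adjusted p = 1.20e-07 by edgeR). The higher DEGs had few counts. Nxph4, a neurexophilin gene, went from 4, 2 and 3 to 16, 15 and 15 counts (2.13, adjusted p = 0.00731 by edgeR), a call lost without the second vehicle culture (adjusted p = 0.0524 by edgeR). The processed pseudogene Gm10120 went from 10, 8 and 12 to 22, 32 and 31 counts (1.30, adjusted p = 0.0213 by edgeR), a call lost without the first or second vehicle culture or the second or the third treated culture (adjusted p = 0.0667 to 0.0921 by edgeR). Nemp1, 5.94 kb from Stat6, was higher (0.83, adjusted p = 1.47e-07 by edgeR) and R3hdm2 was lower (-0.40, adjusted p = 0.00312 by edgeR). Zbtb39 was called higher (0.35, adjusted p = 0.0251 by edgeR), but not with upper quartile scaling or without the first or second vehicle culture or the third treated one (adjusted p = 0.0535 to 0.103 by edgeR). Stac3 was called lower (-0.79, adjusted p = 0.0388 by edgeR), but not with scaling to library size alone or without the second or the third vehicle culture or the first or second treated one (adjusted p = 0.0540 to 0.161 by edgeR). Myo1a and Gpr182 were not called. Near Gata3, 3 of 5 tested genes were higher and 2 lower, beside 24.5% and 23.2% of all genes tested. Of those within 200 kb, Taf3 was higher (0.63, adjusted p = 9.08e-05 by edgeR) and Atp5c1 (-0.41, adjusted p = 0.000213 by edgeR) and Kin (-0.51, adjusted p = 0.000337 by edgeR) were lower.

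Receptors, regulators and signalling genes around these cytokines were taken as 5 lists of 88 genes, of which 79 were tested, 36 were higher and 17 lower, beside 24.5% higher and 23.2% lower over all genes tested. Their median log2 fold change was 0.20, beside 0.0053 over all genes. Of 11 tested receptor genes, 4 were higher and 3 lower. Those lower were Il2rg (-0.39, adjusted p = 0.000710 by edgeR), Csf2ra (-0.62, adjusted p = 0.000214 by edgeR) and Crlf2 (-0.32, adjusted p = 0.0139 by edgeR). These 3 had means of 5146, 598 and 1984 counts and were named after their values were seen. Named in the same way, Il13ra1, an IL-13 receptor chain, was higher (0.60, adjusted p = 0.000182 by edgeR) at a mean of 508 counts, with the groups apart. Il20rb was higher too (0.74, adjusted p = 0.0410 by edgeR), at a mean of 70.7 counts and with overlapping groups. Il4ra, the IL-4 receptor chain, named after its values were seen, was abundant at 536 ± 46.0 CPM with vehicle and 575 ± 21.1 CPM with ALX-5407 (SD, n = 3 per group) and was not called (0.10, adjusted p = 0.295 by edgeR). Csf2rb (1.61, adjusted p = 0.00802 by edgeR) and Csf2rb2 (1.71, adjusted p = 0.0223 by edgeR), which encode the receptor chain shared by IL-3, IL-5 and GM-CSF and its relative specific to IL-3, were higher DEGs. They are close copies whose reads may be shared, with means of 27.5 and 15 counts. The call of Csf2rb was lost without the first treated culture (adjusted p = 0.0606 by edgeR), and that of Csf2rb2 without the second or the third vehicle culture or the third treated culture (adjusted p = 0.0781 to 0.117 by edgeR).

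Of 21 transcription factors that act on Th2 genes, 12 were higher and 3 lower, beside 24.5% and 23.2% of all genes tested. Their median log2 fold change was 0.43, beside 0.0053 over all genes. Maf, an activator of Il4 and Il10, rose from 48.1, 55.2 and 47.0 to 126, 121 and 122 CPM (log2 fold change 1.30, SE 0.0779, adjusted p = 3.21e-09 by edgeR). Pparg, a lipid-sensing factor of Th2 cells, was the other DEG (1.12, adjusted p = 0.000450 by edgeR). Nfatc1 (0.96, adjusted p = 4.66e-08 by edgeR) and Notch1 (0.89, adjusted p = 1.23e-07 by edgeR), named after their values were seen, were also higher. The lower ones, also named after their values were seen, were Rora (-0.68, adjusted p = 1.79e-06 by edgeR), Batf (-0.34, adjusted p = 0.00133 by edgeR) and Stat5b (-0.23, adjusted p = 0.0116 by edgeR). Stat5b was not called without the first treated culture (adjusted p = 0.0646 by edgeR).

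Of 17 genes that restrain type 2 genes, 10 were higher and 3 lower, beside 24.5% and 23.2% of all genes tested. The median log2 fold change of the 17 was 0.34, beside 0.0053 over all genes. Hlx, a partner of T-bet, rose from 17.2, 16.5 and 11.8 to 57.7, 51.5 and 50.7 CPM (log2 fold change 1.81, SE 0.119, adjusted p = 7.74e-09 by edgeR). Zfpm1, which encodes the GATA partner FOG1 (1.15, adjusted p = 8.30e-09 by edgeR), Sox4 (1.32, adjusted p = 0.000662 by edgeR) and Eomes (1.05, adjusted p = 0.000485 by edgeR) were also higher DEGs. Tbx21, the gene of T-bet, named after its values were seen, was higher (0.34, adjusted p = 0.000941 by edgeR), whereas Stat4, which carries the IL-12 signal, was a lower DEG (-1.16, adjusted p = 5.55e-08 by edgeR). Runx3 (-0.52, adjusted p = 0.00155 by edgeR) and Bcl6 (-0.64, adjusted p = 0.0103 by edgeR), also named after their values were seen, were lower too.

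Signalling genes of the IL-4, IL-3 and IL-33 receptors had smaller changes, with 5 higher, 2 lower and 0 DEGs of 13. Of all genes tested, 24.5% were higher and 23.2% lower. The feedback inhibitors Socs1 (0.44, adjusted p = 0.00133 by edgeR) and Cish (0.34, adjusted p = 0.00114 by edgeR) and the kinase Jak1 (0.24, adjusted p = 0.00948 by edgeR) were higher. Irs2, an adaptor of the IL-4 receptor, was lower (-0.69, adjusted p = 2.30e-06 by edgeR). Jak3 was lower too (-0.20, adjusted p = 0.0383 by edgeR), a call lost with scaling to library size alone and without the first vehicle culture or any single treated culture (adjusted p = 0.0506 to 0.184 by edgeR).

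Of 17 tested effector genes linked to Th2 cells, 5 were higher and 6 lower, beside 24.5% and 23.2% of all genes tested. The DEGs among them were 4 lower and 2 higher, beside 6.68% and 3.36% of all genes. Tnfsf4, which encodes OX40 ligand, went from 35.5, 37.1 and 38.0 to 4.24, 5.76 and 6.93 CPM (log2 fold change -2.71, SE 0.137, adjusted p = 5.01e-10 by edgeR). The Th2 chemokine receptor genes Ccr4 (-1.04, adjusted p = 1.04e-07 by edgeR) and Ccr8 (-1.19, adjusted p = 2.49e-06 by edgeR) and the growth factor gene Areg (-1.89, adjusted p = 0.00133 by edgeR) were lower DEGs as well. The higher DEGs were Il10 and Il6, and Il6 rested on a mean of 16.7 counts (1.40, adjusted p = 0.0370 by edgeR). Its call was lost in limma-voom (adjusted p = 0.0690) and in edgeR without any single culture other than the second treated one (adjusted p = 0.0556 to 0.256).

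**Figure D5:**
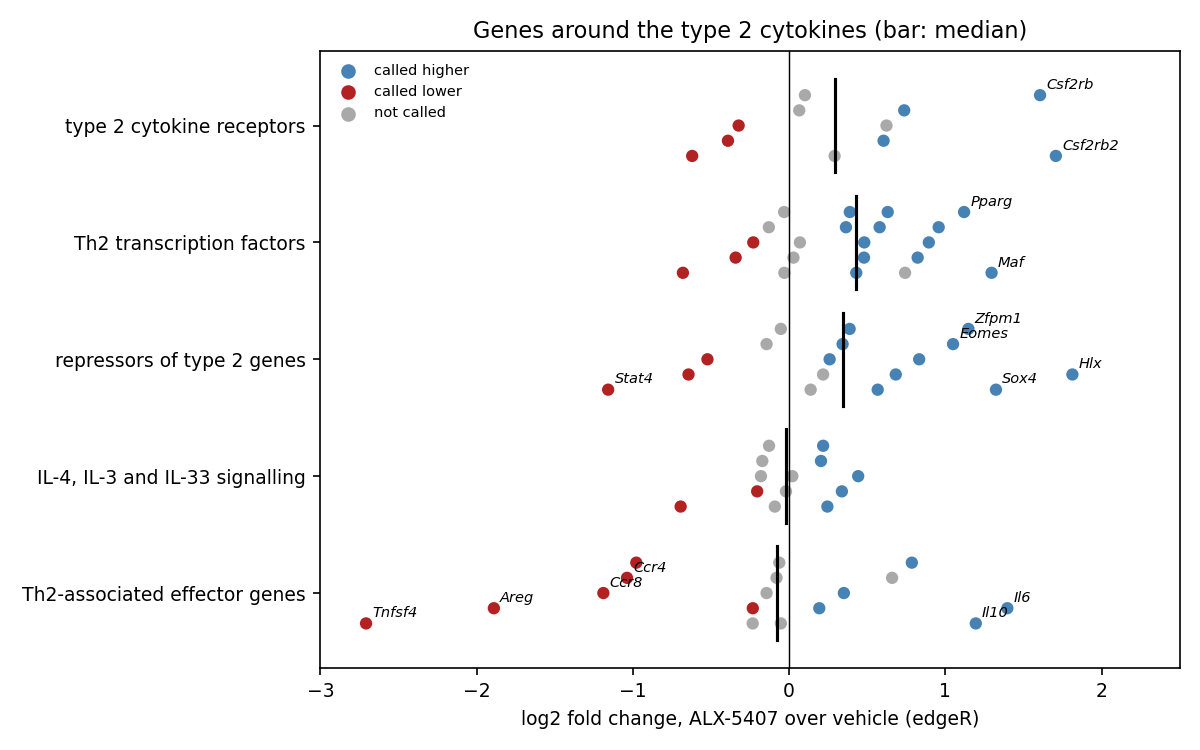
Log2 fold change (x axis, ALX-5407 over vehicle) of the tested genes of 5 lists around the type 2 cytokines, in blue for called higher, red for called lower and grey for not called, with a bar at each median and names on DEGs. The median lies at 0.43 for the transcription factors and at -0.081 for the effector genes.

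Genes whose level followed Il4, Il13, Il3 or Il24 were described by Pearson's r of log2 CPM over the 6 libraries among 12116 genes with a mean of at least 50 counts. Those most like Il4 were Csrnp2, Trav14-3 and Gm44667 (r from 0.974 to 0.981), and 8 genes had r over 0.95. For Il13 they were Tmem234, Zbtb20 and Cox6b2 (r from 0.995 to 0.999), with 214 genes over 0.95. Il3 was most like Mrpl48, Txk and Cetn4 and Il24 most like Ttc39c, Atp10d and Tars2, and here 1119 and 1234 genes had r over 0.95. The libraries share 2 groups, so a gene that differs between the groups in the same direction tends to have a high r.

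Depth ranged from 30801753 to 36727788 counts per library, and within-group correlations of log2 CPM were above those between groups. The CD4 T cell markers summed to 2083 to 2252 CPM with vehicle and 2127 to 2187 CPM with ALX-5407, and the Th1 markers to 1356 to 1565 and 1074 to 1113 CPM. Of the 6 CD4 T cell markers, Cd4 (-0.46, adjusted p = 0.000174 by edgeR), Cd3d (-0.39, adjusted p = 0.00127 by edgeR) and Cd3g (-0.35, adjusted p = 0.000622 by edgeR) were lower. Cd28 (0.52, adjusted p = 2.44e-05 by edgeR) and Cd5 (0.24, adjusted p = 0.0110 by edgeR) were higher, and Cd5 was not called without the second treated culture (adjusted p = 0.0532 by edgeR). Of the 6 Th1 markers, 3 were lower (Stat4, Il18r1 and Ifng (-0.79, adjusted p = 5.75e-06 by edgeR)) and 1, Tbx21, was higher. According to the methods, the CD4+ T cells had been enriched with magnetic beads that remove other cells. Basophils and mast cells also express Il3, Il4, Il13 and Il1rl1, and their 11 markers summed to 6.69 to 9.77 CPM with vehicle and 8.40 to 10.2 CPM with ALX-5407. Of these, 3 were tested and Gata2 was called higher (1.54, adjusted p = 0.0300 by edgeR), with overlapping groups, but not without the second or the third culture of either group (adjusted p = 0.0857 to 0.136 by edgeR). The defining genes Mcpt8, Prss34, Cpa3, Fcer1a, Ms4a2, Cd200r3, Mcpt4 and Tpsb2 had at most 14 counts in any library, and Mcpt4 had 0 in all. The 4 markers of type 2 innate lymphoid cells summed to 2.15 to 3.00 and 1.77 to 2.35 CPM, with 1 of 2 tested lower. B cell markers summed to 7.99 to 9.17 CPM with vehicle and 12.5 to 15.0 CPM with ALX-5407, with 3 of 6 higher. Myeloid markers summed to 85.5 to 96.5 and 30.3 to 37.0 CPM, mostly from Ly6g and Cd68, both lower, while the other 6 had at most 15 counts. CD8 T cell markers summed to 9.24 to 9.58 and 6.71 to 8.86 CPM and NK cell markers to 3.80 to 4.30 and 1.33 to 1.65 CPM, with 1 tested gene lower in each. The part of these cells in the results was not tested. In bulk RNA, fewer cells of a type and less RNA per cell cannot be told apart.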

How the data were processed

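RNA sequencing counts from 6 libraries were used, 3 Th1 cultures with vehicle and 3 with ALX-5407, grouped by the sample labels. The authors deposited raw counts, whole numbers of reads per gene that are neither normalized nor pooled. The submitters' processing notes name fastp, HISAT2 2.0.5, featureCounts 1.5.0-p3 and mm10. Strand setting and handling of multiply mapped reads are not given in the sources used here, so overlapping genes and close copies are uncertain. The labels describe poly-T capture and the methods ribosomal RNA depletion.

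Counts were tested with edgeR 4.0.16 in R 4.3.3 (filterByExpr with a minimum count of 10 and a minimum total of 15, TMM scaling, quasi-likelihood F test with group as the only term), and p-values were adjusted by Benjamini-Hochberg over 15938 genes. CPM used TMM-scaled library sizes, and levels per kilobase used the deposited gene lengths. An exact permutation test of 3 against 3 cannot go below 0.1. Alternatives were DESeq2 1.42.0, limma-voom (limma 3.58.1), other scalings and filters, a replicate block and leaving out each replicate. The procedure was tested on simulated counts. Replicates differed beyond sampling noise, with chi-square per degree of freedom from 5.65 to 22.4. Transcripts and exons were taken from GENCODE M21 (GRCm38), whose spans of the 9 genes equal those in the table, and promoters from RefSeq.

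The members and lists were chosen with earlier results of these data known. Named genes are the 9 members, coding neighbours within 200 kb or DEGs within 500 kb, and the 3 genes most like each of Il4, Il13, Il3 and Il24. From each list the DEGs are named, or, in a list without DEGs, up to 3 called genes with the smallest p each way. Cell type markers are named as well, and other genes are marked.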

Additional observations from a re-analysis of the deposited data

How the results depend on the processing

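Il3, Il24, Il13, Il1rl1 and Stat6 were called lower under all 14 alternatives. With each replicate left out in turn the log2 fold change ranged from -3.93 to -3.34 for Il3, from -1.80 to -1.72 for Il24, from -1.83 to -1.17 for Il13, from -1.14 to -1.0 for Il1rl1, from -0.28 to -0.23 for Stat6, from -1.51 to -0.80 for Csf2, from -0.86 to -0.35 for Il4 and from 0.20 to 0.45 for Gata3. Csf2 was also called lower with upper quartile scaling (-1.23, adjusted p = 0.0456 by edgeR), and a filter at 1 CPM in 3 libraries left it out. Leaving out replicates gave 5 to 6 members called lower, 4 to 5 lower DEGs, 0 to 1 called higher (Gata3 without the first treated culture) and 0 to 0 higher DEGs, and scaling to library size alone gave 1 called higher, again Gata3. Among list genes it gave 13 to 21 lower, 4 to 6 lower DEGs, 30 to 33 higher and 7 to 10 higher DEGs, and among neighbours 25 to 28 lower, 4 to 7 lower DEGs, 20 to 23 higher and 4 to 6 higher DEGs. The filter at 1 CPM left 3 higher DEGs among neighbours in place of 5. Neighbours with log2 fold changes near 0 changed sign with scaling to library size alone (Gdf9 0.021, Irf1 0.046, Nab2 0.042, Myo1a 0.045), Myo1a also in limma-voom (0.0058) and with the replicate block (0.0040). Without single replicates, Gdf9 ranged from -0.33 to 0.55, Irf1 from -0.046 to 0.021, Nab2 from -0.15 to 0.066 and Myo1a from -0.19 to 0.15. The cause was not tested. Same-numbered cultures showed no clear joint deviation (correlations -0.00840, 0.00355 and 0.0635), and not every culture correlated best with its own number. These values cannot show whether same-numbered cultures shared a mouse or a batch. With the replicate block 5 members were called lower and 0 higher, as without it.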
